A study of Mus musculus with 3 samples.

Results

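The data on 10 genes of dietary fat absorption were followed across the cells of 3 single-cell RNA sequencing libraries of the mouse small intestine. They were the apolipoprotein genes *Apoa1*, *Apoa4*, *Apoc3* and *Apob*, the transfer protein gene *Mttp*, the fatty acid binding protein genes *Fabp1* and *Fabp2*, the enzyme gene *Dgat1*, the receptor gene *Cd36* and the retinol binding protein gene *Rbp2*. These 10 genes, of 27998 in the count tables, were listed by name and not by a rule on measured values, but with earlier results of these data known. Each had counts in every library. The 3 libraries held EpCAM+ cells, that is, epithelial cells sorted on a surface protein, and each came from C57BL/6 mice that were 7 to 8 weeks old when they received 2 doses of 2 mg tamoxifen. WT, the wild type, was taken on day 21. *LApc* (Lgr5-CreERT2;Apc fl/fl), taken on day 29, loses *Apc*, a brake on Wnt signalling, in cells that express *Lgr5*, the intestinal stem cells. *LApcL* (the same alleles together with Lef1 fl/fl), taken on day 21, also carries floxed *Lef1*, a Wnt transcription factor gene. The study's methods give the Cre driver in full as Lgr5-EGFP-IRES-CreERT2. Because the Cre recombinase is driven from *Lgr5*, only stem cells and their descendants recombine. The *LApc* and *LApcL* libraries thus each hold a mixture of recombined and other cells. There was 1 library for each genotype, so genotype cannot be told apart from mouse, library, reagent kit or, for *LApc*, day.

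Enterocytes absorb fat in steps. Fatty acids enter at the brush border, are bound in the cytosol by the proteins of *Fabp1* and *Fabp2*, and are built back into triglyceride, with the last step carried out by the enzymes of *Dgat1* and *Dgat2*. The protein of *Mttp* loads this triglyceride onto apolipoprotein B in the endoplasmic reticulum, and the particle, a chylomicron, takes up apolipoproteins A-I, A-IV and C-III before it leaves for the lymph. CD36 is a membrane receptor for fatty acids, and RBP2 carries vitamin A, which travels with fat, inside the enterocyte.

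In the GRCm38 annotation, all 10 were protein-coding genes. *Apoa1* (chromosome 9, 46228580 to 46230466, plus strand), *Apoc3* (46232933 to 46235636, minus strand) and *Apoa4* (46240696 to 46243459, plus strand) were neighbours, with 2466 bases between the first and the second and 5059 between the second and the third. The others lay apart, *Rbp2* also on chromosome 9 (98486115 to 98509781), *Fabp1* on chromosome 6 (71199827 to 71205023) and *Fabp2* on chromosome 3 (122895072 to 122899506). Upstream sequence is shown for the genes whose levels set them apart from one another below, *Fabp1*, high in tuft-like cells, *Fabp2*, high in goblet-like cells, *Apoa4*, with the largest ratio between libraries, and *Rbp2*, highest in proximal enterocytes of WT. Each is the 250 bases before the RefSeq transcription start (GRCm38.p6), all on the plus strand, with any match of TATAAA or of CAAAGT or of GTTAAT on either strand in capitals. For *Fabp1*, *Apoa4* and *Rbp2* the RefSeq start lies downstream of the gene start given above, which covers all annotated transcripts, so that part or all of these windows lies within the annotated gene. The windows were chr6:71199629-71199878 for *Fabp1*, chr3:122894822-122895071 for *Fabp2*, chr9:46240594-46240843 for *Apoa4* and chr9:98490287-98490536 for *Rbp2*.
Fabp1: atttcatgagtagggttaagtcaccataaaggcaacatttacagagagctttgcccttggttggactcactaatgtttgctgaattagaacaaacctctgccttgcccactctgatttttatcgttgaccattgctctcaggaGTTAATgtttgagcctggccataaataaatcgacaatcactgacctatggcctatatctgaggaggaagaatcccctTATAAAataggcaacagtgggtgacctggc
Fabp2: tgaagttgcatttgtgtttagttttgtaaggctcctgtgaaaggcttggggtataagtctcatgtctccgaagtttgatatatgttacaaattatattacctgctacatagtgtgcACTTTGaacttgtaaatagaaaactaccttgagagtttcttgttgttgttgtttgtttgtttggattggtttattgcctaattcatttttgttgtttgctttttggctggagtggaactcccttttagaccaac
Apoa4: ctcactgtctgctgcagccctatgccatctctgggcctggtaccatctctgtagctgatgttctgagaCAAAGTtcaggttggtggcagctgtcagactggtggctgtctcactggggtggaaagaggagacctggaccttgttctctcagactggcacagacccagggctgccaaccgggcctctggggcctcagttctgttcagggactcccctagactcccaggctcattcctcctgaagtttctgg
Rbp2: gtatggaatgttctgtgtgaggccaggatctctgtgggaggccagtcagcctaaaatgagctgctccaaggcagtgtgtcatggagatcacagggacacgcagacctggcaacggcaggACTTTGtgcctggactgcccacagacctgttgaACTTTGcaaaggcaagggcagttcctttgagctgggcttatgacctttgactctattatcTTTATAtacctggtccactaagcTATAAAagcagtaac
Promoters were found for 8 of the 10 genes. TATAAA, the core of the TATA box, stood in 3 of these 8 (*Apob*, *Fabp1* and *Rbp2*) and in 12.4% of 32851 RefSeq promoter windows of the same length. CAAAGT, part of the motif of HNF4 factors, stood in 4 of 8 (*Apoa4*, *Cd36*, *Fabp2* and *Rbp2*) and in 12.6% of all windows, and GTTAAT, part of the motif of HNF1 factors, in 1 of 8 (*Fabp1*) and in 6.43% of all windows. These are matches of letters and not measured binding sites.

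After filtering, 10138 (WT), 9601 (*LApc*) and 14394 (*LApcL*) cells were kept, with 121001390, 62459616 and 155437418 UMIs (unique molecular identifiers, each counting 1 captured RNA molecule) and medians of 9713, 6132 and 10156 UMIs per cell. *LApc* was the shallowest library, and 17.7% of its barcodes were left out for more than 20% mitochondrial UMIs, against 0.541% in WT and 2.38% in *LApcL*. Between 214 and 318 barcodes were shared by any pair of libraries. *Lef1* stood at 0.124, 3.84 and 3.00 CPM in all kept cells of WT, *LApc* and *LApcL*, where CPM is a gene's UMI count scaled to the same total UMI count in every class and library. A count at the 3′ end of a transcript does not check the loss of a floxed part elsewhere, and the position of that part was not given in the sources used here. Cells were clustered without the 10 genes and without 70 other genes of fat handling, so that the classes do not rest on what was compared. Enterocyte-like cells, in 3 clusters, were named from 16 brush border genes such as *Alpi*, *Sis* and *Anpep*, or from early or ileal markers. There were 2795 of them in WT (27.6% of kept cells), 3535 in *LApc* (36.8%) and 1718 in *LApcL* (11.9%).

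Within each library the 10 genes were highest in the main enterocyte cluster, in which all 16 brush border genes were raised. They made up 7.51% of all UMIs there in WT, 10.98% in *LApc* and 7.57% in *LApcL*, against 0.0899%, 0.267% and 0.0761% in Paneth-like cells, the lowest class. *Apoa1*, the main protein of HDL, stood at 20063, 24672 and 26290 CPM in the main cluster of WT, *LApc* and *LApcL*. In ileal enterocyte-like cells, with all 9 ileal markers raised, it stood at 4230, 8181 and 7500 CPM, and in early enterocyte-like cells, with 9 of 10 early markers raised, at 2508, 3096 and 1807 CPM. The ranges over the 3 libraries did not overlap between these 3 clusters, nor between early enterocyte-like and enteroendocrine-like cells (915 to 1576 CPM). From enteroendocrine-like cells down, through tuft-like, goblet-like, adenoma-enriched, Wnt/TA-like (crypt and proliferating) and Paneth-like cells, the range of each class overlapped that of the next. The early cluster was named for the number of early markers raised and not for their sum. They summed to 14034.5, 37051 and 31861 CPM in it, in the order WT, *LApc*, *LApcL*. The sums were 21528, 38117 and 29209 CPM in the main cluster and 68208, 83084 and 25311 CPM in the ileal cluster. The early cluster thus had the highest sum in *LApcL* only.

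**Figure D1:**
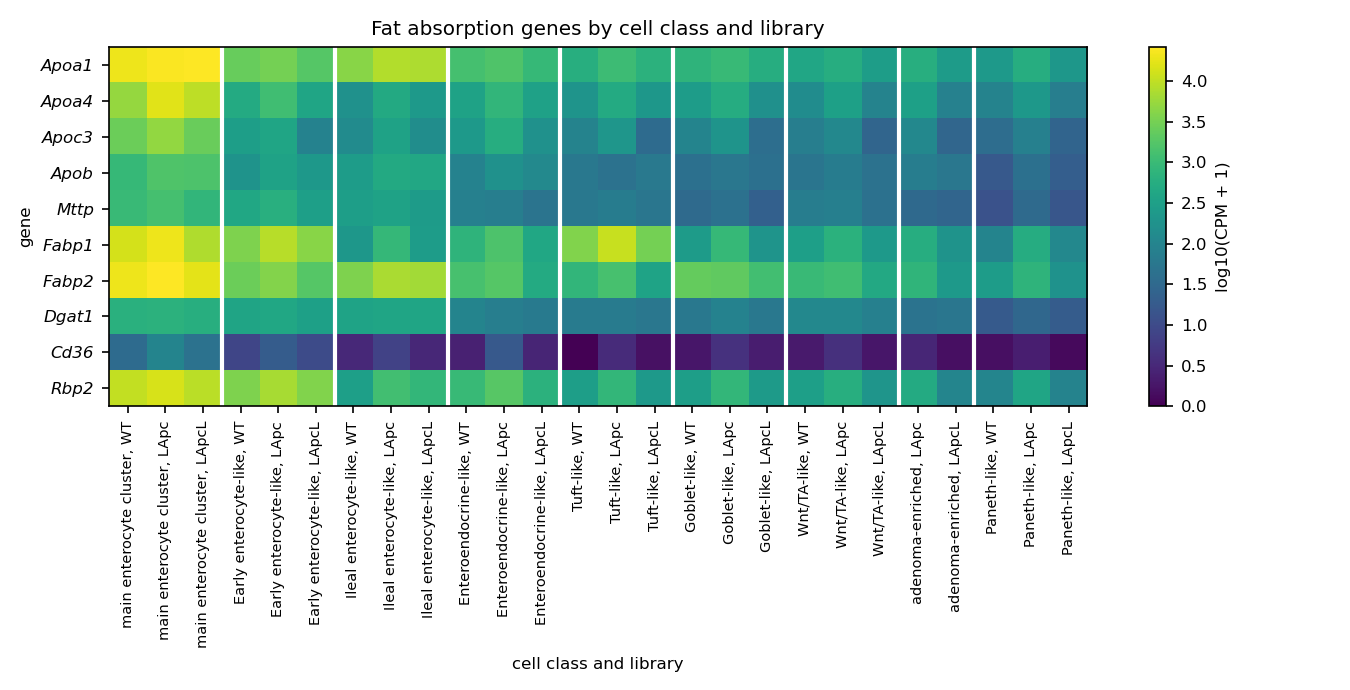
Level of the 10 genes, as the log10 of CPM plus 1, in each named cell class (columns, grouped by class, 1 column per library with at least 50 cells). The main enterocyte cluster is brightest for every gene, and *Fabp1* is also high in tuft-like cells, at 3106 to 11279 CPM.

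The ileal cluster was above early enterocyte-like cells in some of the genes and below them in others. Its *Apoa1* and *Fabp2* levels were above those of early enterocyte-like cells in all 3 libraries, with *Fabp2* at 3634, 7321 and 6459 CPM in the order WT, *LApc*, *LApcL*, against 2660, 3997 and 1785 CPM. *Fabp1*, by contrast, stood at 221, 864 and 274 CPM in ileal cells, against 3723, 8869 and 4330 CPM in early ones. *Rbp2* followed *Fabp1*, with 316, 1212 and 852 CPM in ileal and 3719, 6952 and 3813 CPM in early cells. *Apoa4* stood at 174, 490 and 245 CPM in ileal cells. As a share of the level over all enterocyte-like cells, the lowest of the 10 genes in this cluster was *Fabp1* in WT (3.81%) and *LApcL* (5.69%) and *Apoa4* in *LApc* (7.64%). *Dgat1*, at 364, 395 and 397 CPM, was the gene closest to its level over all enterocyte-like cells in each library. It stood at 79.5%, 76.2% and 94.2% of that level, while the median over the 10 genes was 29.2%, 30.8% and 37.8%. That level is an average that includes the ileal cells and the main cluster.

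*Cd36* was the lowest of the 10 genes in every class. In the main enterocyte cluster it stood at 33.4 CPM in WT (95% interval 29.8 to 37.4), at 96.8 CPM in *LApc* (89.99 to 104) and at 45.0 CPM in *LApcL* (39.2 to 51.5). After each cell had been thinned to 3000 UMIs, 10.2%, 24.6% and 14.3% of the main cluster had a *Cd36* UMI, while in Paneth-like cells, which should lack it, 0% did in each library. In tuft-like cells of WT it was at 0 of 2332671 UMIs.

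*Fabp1* was the exception to the pattern of the other genes outside enterocytes. In tuft-like cells, chemosensory cells in which all 10 tuft markers were raised, it stood at 3788 CPM in WT, 11279 in *LApc* and 3106 in *LApcL*. This was 65.2%, 101% and 64.5% of the level over all enterocyte-like cells of the same library. The other 9 genes in tuft-like cells lay between 0% and 14.8% in WT, between 5.45% and 12.9% in *LApc* and between 3.02% and 13.3% in *LApcL*. The *Fabp1* share was thus above that of each of the other genes in all 3 libraries. In goblet-like cells of the same libraries *Fabp1* stood at 195 to 912 CPM.

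*Fabp1* was unevenly spread over the tuft-like cells. Thinned to 3000 UMIs, which left 262, 70 and 307 cells, the median cell held 2 *Fabp1* UMIs in WT, 28.5 in *LApc* and 1 in *LApcL*, and the 90th percentile was 52, 104.2 and 32. Cells with 10 or more made up 65 of 262 in WT (24.8%, exact binomial 95% interval 19.7 to 30.5), 40 of 70 in *LApc* (57.1%, 44.7 to 68.9) and 55 of 307 in *LApcL* (17.9%, 13.8 to 22.7). Of Paneth-like cells, 0%, 4.55% and 0.595% held as many. Before thinning, the median Paneth-like cell had 43981, 14324 and 17443 UMIs and the median tuft-like cell 7527.5, 4320 and 5077. The tuft-like cells with 10 or more *Fabp1* UMIs also had more of the summed tuft markers than the rest, with 14791 against 7649 CPM in WT, 15458 against 8987 in *LApc* and 12896 against 9273 in *LApcL*. Their summed brush border genes stood at 1224, 1242 and 795 CPM, against 725, 525 and 585 in the other tuft-like cells and 7077, 8119 and 5387 in enterocyte-like cells. *Rbp2*, in the same cells with 10 or more *Fabp1* UMIs, stood at 468.8, 898 and 320 CPM, against 251, 668 and 223 CPM in the other tuft-like cells. *Apoa1* stood at 1031, 1222 and 846 CPM against 471, 810 and 639 CPM. In every library these cells thus had more of the tuft markers, and also more of the brush border genes, *Rbp2* and *Apoa1*, than the other tuft-like cells. *Dgat1* went the other way in every library, at 62.9, 56.5 and 30.2 CPM against 69.1, 79.9 and 61.3 CPM. *Apoa4* was higher in these cells in WT and *LApc* and lower in *LApcL* (205 against 218 CPM). Doublets of a tuft-like cell and an enterocyte that the doublet removal missed were not tested for.

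*Fabp2* stood out in goblet-like cells, the mucus-secreting cells. It was at 2396 CPM in WT, 2205 in *LApc* and 1194 in *LApcL*, which was 28.2%, 18.2% and 16.2% of the enterocyte-like level and the highest share of any of the 10 genes in that class in each library. The medians over the 10 genes there were 9.30%, 8.33% and 5.24%. It was spread more evenly than *Fabp1* in tuft-like cells, with medians of 7, 6 and 3 UMIs per thinned cell and 10th percentiles of 3, 3 and 0. After thinning, 99.1%, 99.4% and 89.4% of goblet-like cells had a *Fabp2* UMI, against 55.7%, 75.8% and 49.4% of Paneth-like cells. Before thinning, the median goblet-like cell had 8531, 5129 and 6777 UMIs, below the Paneth-like medians of 43981, 14324 and 17443. The part of this depth difference was not tested.

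*Dgat1* was the third gene with a share of its own. In Wnt/TA-like cells it stood at 114, 114 and 82.6 CPM, which was 24.99%, 21.9% and 19.6% of the enterocyte-like level and the highest of the 10 genes in each library. The medians there were 7.86%, 7.09% and 4.75%. In enteroendocrine-like cells, the hormone-producing cells, *Apoc3* had the highest share in WT (23.6%, 233 CPM) and *LApcL* (19.5%, 170 CPM) and *Cd36* in *LApc* (36.8%, 15.9 CPM, interval 10.7 to 22.7). In Paneth-like cells all 10 genes lay between 1.43% and 6.12% of the enterocyte-like level, and no gene stood apart in all 3 libraries. Whether these shares are background was not tested.

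**Figure D2:**
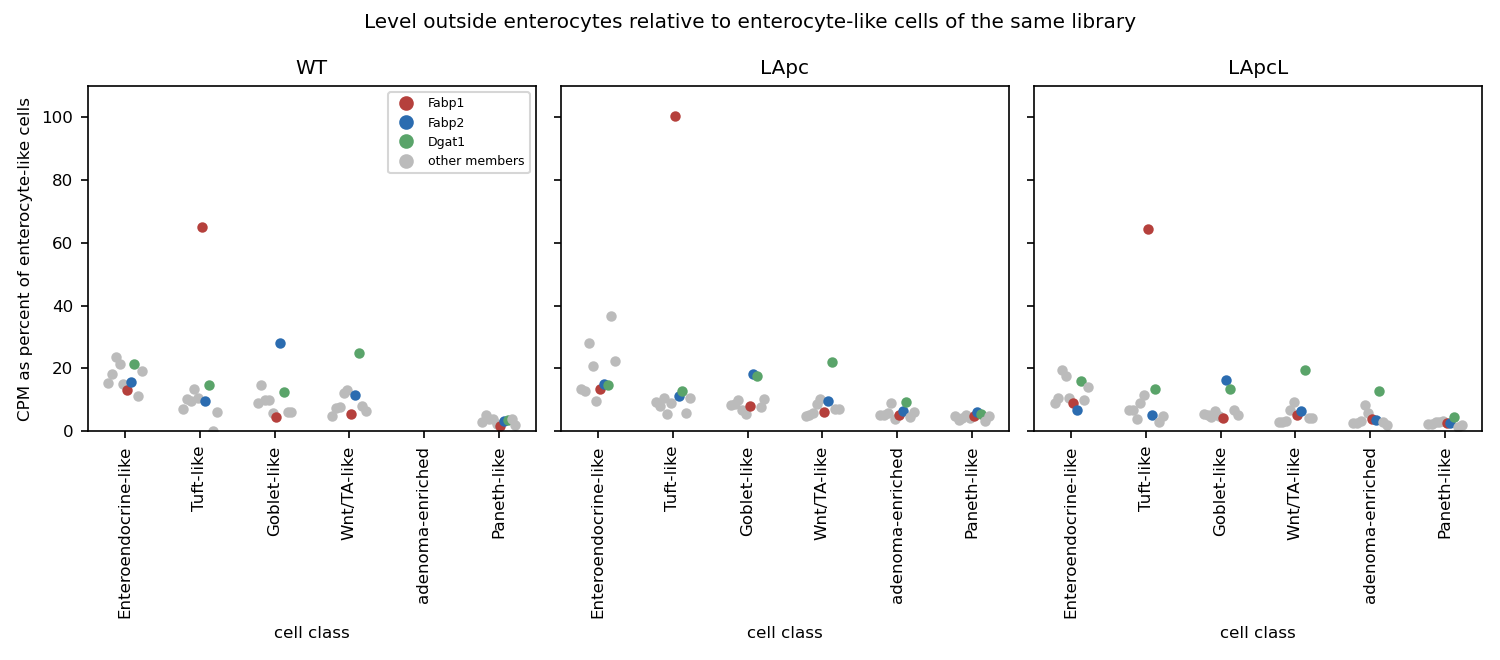
CPM of each gene in 6 classes outside the enterocyte clusters, as a percent of its CPM in all enterocyte-like cells of the same library (1 panel per library, 1 point per gene; adenoma-enriched cells of WT were too few to show). *Fabp1* in tuft-like cells lies at 65.2%, 101% and 64.5%, *Fabp2* is the highest point in goblet-like cells and *Dgat1* in Wnt/TA-like cells.

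A finer clustering split the enterocyte-like cells into 7 groups, 3 of them early, 1 ileal, 1 proximal, 1 mature and 1 late. In the proximal group all 6 markers of the upper small intestine were raised, and also all 16 brush border genes. The late group (97, 199 and 99 cells in WT, *LApc* and *LApcL*) had all 9 markers of the villus tip raised, such as *Ada*, *Nt5e* and *Slc28a2*, and also 8 of 9 ileal markers. In it *Apoa4* reached 7182, 41452 and 15616 CPM, which was 377%, 646% and 478% of the level over all enterocyte-like cells and the highest share of the 10 genes in each library. *Fabp1* in the same cells was at 592, 3184 and 668 CPM, 10.2%, 28.4% and 13.9%, the lowest share of the 10 in each library. *Mttp* stood at 280, 992 and 326 CPM in the late and at 1094, 1436 and 886 CPM in the mature group, lower in the late group in every library. *Apoa1* was higher in the late than in the mature group in *LApc* (45807 against 23134 CPM) and *LApcL* (28903 against 27036) and lower in WT (12745 against 21953). *Apob* followed the same order, with 3387 against 1496 CPM in *LApc*, 1926 against 1495 in *LApcL* and 892 against 941 in WT.

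The proximal group, of 131, 371 and 130 cells, was rich in *Fabp1*, at 21031, 23678 and 10348 CPM, and *Rbp2*, at 18191, 14323 and 11720 CPM. In the mature group *Rbp2* stood at 11996, 16041 and 10106 CPM, so that the proximal group was higher in WT and *LApcL* and lower in *LApc*. *Fabp2* in the proximal group was 14338 and 12156 CPM in WT and *LApc* and 3907 CPM in *LApcL*, where *Apoc3* also stood at 678 CPM against 1239 and 4084 CPM in the others. Of the early groups, the one with 9 of 10 early markers raised already carried *Fabp1* at 4821, 11399 and 5542 CPM and *Rbp2* at 4621, 8657 and 4476 CPM. Its *Apoa4* was at 493, 1109 and 276 CPM, 25.9%, 17.3% and 8.46% of the level over all enterocyte-like cells and again the lowest of the 10 in each library.

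**Figure D3:**
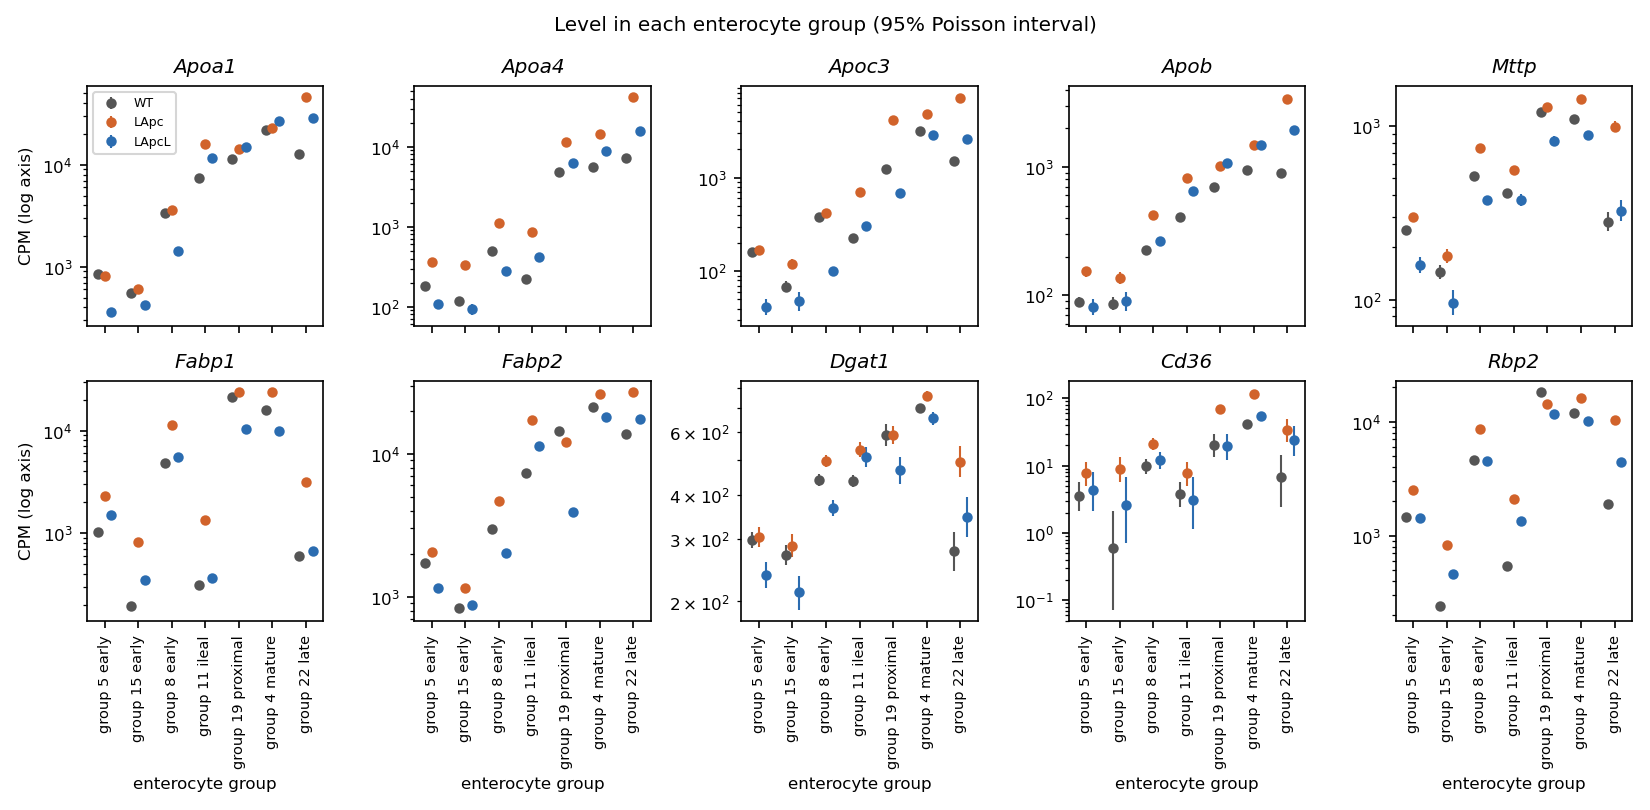
CPM on a log axis (points, with 95% Poisson intervals of counting error) of each gene in the 7 enterocyte groups, coloured by library. *Apoa4* reaches 41452 CPM in the late group of *LApc*, while *Fabp1* stands there at 592, 3184 and 668 CPM.

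The enterocyte-like cells were next ordered by a score of late minus early markers, which holds none of the 10 genes, and cut into 5 bins of nearly equal cell number within each library. The bins describe a range and not cell types. *Apoa4* was higher in each later bin in every library, from 661 to 4758 CPM in WT, from 1209 to 27502 CPM in *LApc* and from 548 to 14483.5 CPM in *LApcL*, so that the last bin was 7.19-fold, 22.8-fold and 26.4-fold above the first. *Apoc3* went from 335 to 2194 CPM, from 394 to 6988 CPM and from 117 to 2920 CPM, and *Apoa1* from 3658 to 14372 CPM, from 3665 to 36339 CPM and from 2981 to 31907 CPM. *Fabp2* ended 5.35-fold, 6.75-fold and 9.60-fold above its start and *Apob* 3.18-fold, 6.31-fold and 5.95-fold. All 5 of these genes were highest in the last bin in each library.

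*Fabp1* did not share this course. It was highest in bin 4 in WT (7037 CPM) and *LApc* (15853 CPM) and in bin 1 in *LApcL*, where it went from 6706 to 3766 CPM. In WT and *LApc* its last bin was still 1.76-fold and 1.23-fold above its first, and with 3 bins in place of 5 it was highest in the last bin of both, 1.55-fold and 1.54-fold above the first. *Dgat1* ended 1.11-fold, 1.43-fold and 1.48-fold above its start. *Mttp* ended 1.49-fold, 1.85-fold and 1.64-fold above its start and *Rbp2* 1.77-fold, 1.62-fold and 1.41-fold. Position along the gut and depth moved with the score. Cells of the ileal cluster made up 51.5% of the first and 8.94% of the last bin in WT, 21.1% and 12.2% in *LApc* and 0.872% and 9.62% in *LApcL*. The median depth went from 10834 to 8544, from 7247 to 3694 and from 9399.5 to 5798 UMIs. Their part in these courses was not tested.

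**Figure D4:**
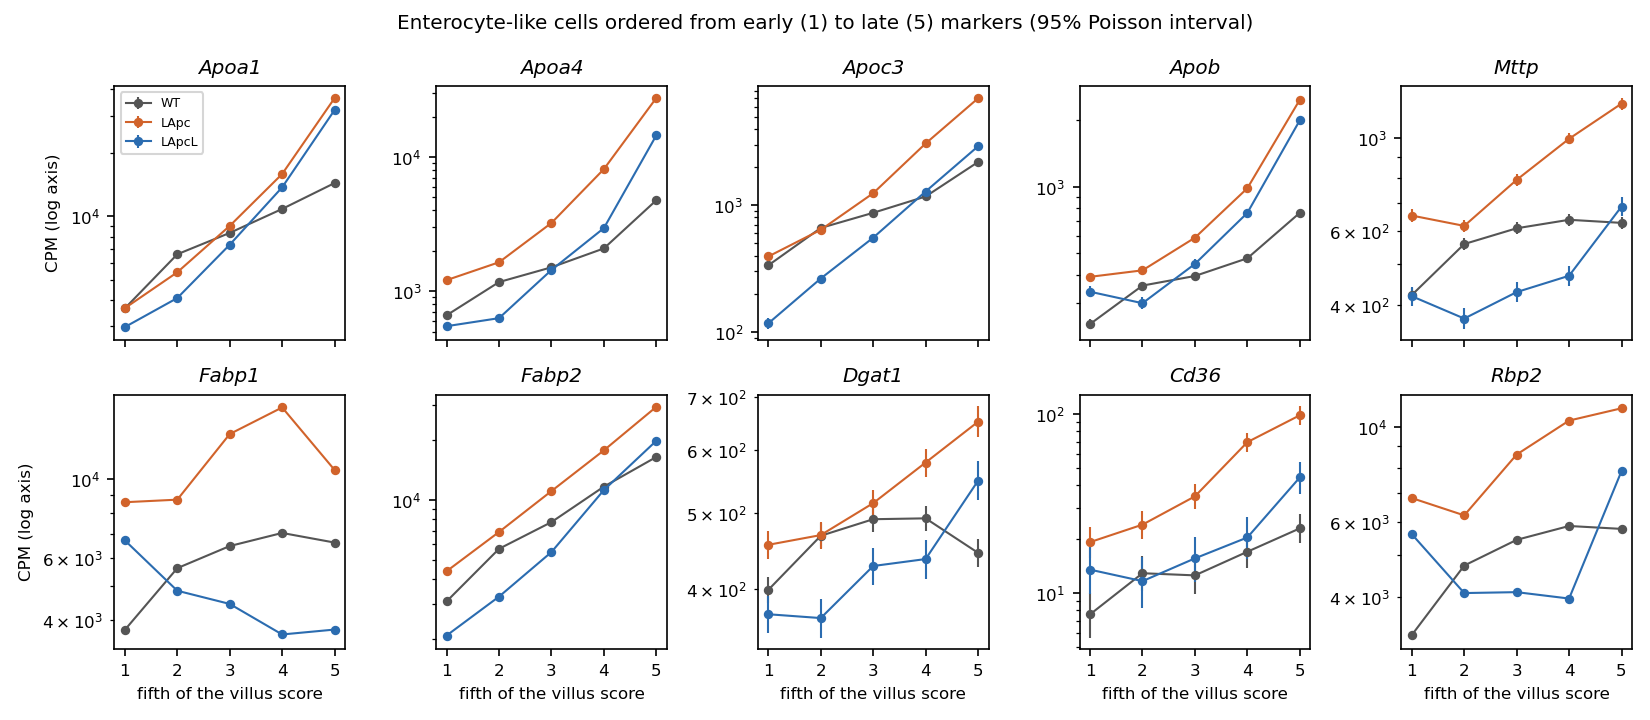
CPM on a log axis (points joined by lines, with 95% Poisson intervals) of each gene in 5 bins of the enterocyte-like cells, from early (1) to late (5) markers, coloured by library. *Apoa4* in the last bin is 7.19-fold above the first in WT and 26.4-fold in *LApcL*, whereas *Fabp1* in *LApcL* goes from 6706 to 3766 CPM.

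The comparison of genotypes asks how the fat genes stood in the enterocytes of mice with *Apc* loss, with and without floxed *Lef1*. With 1 library each there is no replicate check, no test can be made, and the intervals given cover counting error only. A difference of 2-fold or more was taken as the call. Over all enterocyte-like cells, *Apoa4* stood at 1907 CPM in WT (95% interval 1891 to 1923), at 6417 CPM in *LApc* (6384 to 6451) and at 3265 CPM in *LApcL* (3236 to 3294). *Cd36* stood at 14.1 (12.8 to 15.6), 43.1 (40.4 to 45.9) and 19.4 (17.2 to 21.7) CPM, and *Apoc3* at 988, 1978 and 872 CPM. *LApc* was the highest of the 3 libraries for these genes and for the other 7, but for *Apoa1* the order of *LApcL* and *LApc* turned with a 10% mitochondrial limit (log2 ratio 0.036) and with thinning to 3000 UMIs (0.047).

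Between *LApc* and WT, 3 of 10 genes were 2-fold or more higher and 0 lower. Of all 6744 genes at a mean of 10 CPM or more, 1.79% were 2-fold or more higher and 1.20% lower. The 3 were *Apoa4* (log2 ratio 1.75, interval 1.74 to 1.76), *Cd36* (1.61, 1.44 to 1.78) and *Apoc3* (1.00, 0.98 to 1.02), the last at the threshold itself. *Fabp1* (0.95, from 5812 to 11215 CPM) and *Apob* (0.93, from 431 to 819 CPM) lay just under it, and *Dgat1* (0.18, from 458 to 519 CPM) was the smallest. The median over the 10 genes was 0.83, beside -0.05 over all genes, and 10 of 10 intervals lay above 0. With a stricter limit of 10% mitochondrial UMIs, *Apoa4* and *Cd36* kept the call at 1.04 and 1.09, and *Apoc3* stood at 0.41. *Apoc3* was also just under 2-fold with cells thinned to 3000 UMIs (0.99) and with classes taken from marker scores (0.9996). Above that limit lay 17.2%, 35.6% and 18.3% of the enterocyte-like cells, in the order WT, *LApc* and *LApcL*, and these held more *Apoa4*, at 4943, 16260 and 10563 CPM against 1404, 2894 and 2192 CPM in the rest. Their part in the ratio was not tested beyond this limit.

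The higher levels in *LApc* were found in all 3 clusters. In the main enterocyte cluster *Apoa4* stood at 5307, 16648 and 9627 CPM in WT, *LApc* and *LApcL*, in early cells at 494, 1147 and 388 CPM and in ileal cells at 174, 490 and 245 CPM. All 10 genes were above WT, with intervals clear of 0, in each of the 3 clusters, and 2, 3 and 6 of them were 2-fold or more higher in the main, early and ileal clusters, where 3.09%, 1.80% and 1.61% of all genes were. The ileal 6 included *Fabp1*, at 221 CPM in WT and 864 in *LApc* (log2 ratio 1.97), and *Rbp2*, at 316 and 1212 CPM (1.94). Within this ileal cluster the ileal markers summed to 63993, 24486 and 22667.5 CPM in WT, *LApc* and *LApcL*. The part of this difference in the ileal ratios was not tested. The finer groups were less uniform. In the late group 8 of 10 were 2-fold or more higher (14.2% of all genes), with a median log2 ratio of 2.08. In the proximal group 3 of 10 were (5.46% of all genes), with a median of 0.24 and 2 intervals below 0. The late group itself differed in markers and depth. Its late markers summed to 4969, 14109 and 8746 CPM in WT, *LApc* and *LApcL*, and its brush border genes to 4992, 11382 and 6280 CPM. Its median depth was 8774, 3396 and 6030 UMIs. The part of these differences in the ratios of the late group was not tested. With each of the 7 enterocyte groups given equal weight, 4 genes were 2-fold or more higher, *Apob* being added at 1.16.

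Between *LApcL* and WT, 0 of 10 genes were 2-fold or more higher and 0 lower, while 1.42% of all 6882 genes tested were higher and 1.54% lower. *Apoa4* (log2 ratio 0.78, interval 0.76 to 0.79) and *Apob* (0.65, 0.61 to 0.69) were the highest, and *Mttp* (-0.30, -0.34 to -0.26) and *Fabp1* (-0.27, -0.28 to -0.26) the lowest. The median was -0.05, beside 0.02 over all genes. The clusters differed in direction. *Apoc3* in early cells stood at 303 CPM in WT and 91.1 CPM in *LApcL* (log2 ratio -1.73), and in ileal cells *Rbp2* stood at 316 and 852 CPM (1.43). In the late group 5 of 10 were 2-fold or more higher (8.22% of all genes) and 0 lower (7.83%), with a median of 0.95. In the proximal group 0 were higher and 2 lower (3.95% of all genes), with a median of -0.44. In 2 of the early groups 0 were also higher and 2 lower (2.05% and 2.21% of all genes), with medians of -0.45 and -0.36. The remaining early group differed, with log2 ratios from -0.58 to 2.15 and a median of -0.14. With each cell weighted equally, *Apoa4* passed 2-fold, at 1.03.

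Between *LApcL* and *LApc*, 3 of 10 genes were 2-fold or more lower and 0 higher, beside 1.08% lower and 1.59% higher of all 6869 genes. They were *Fabp1* (log2 ratio -1.22, interval -1.23 to -1.21, from 11215 to 4814 CPM), *Apoc3* (-1.18, -1.21 to -1.15) and *Cd36* (-1.15, -1.35 to -0.96). *Apoa4* stood at -0.97 and *Mttp* at -0.82, and *Apoa1* was the smallest at -0.17. The median was -0.77, beside 0.05 over all genes. These 3 comparisons share libraries, so that the high levels of *LApc* enter both this comparison and that with WT. With the 10% mitochondrial limit, or with cells thinned to 3000 UMIs, only *Fabp1* of these 3 stayed 2-fold or more lower, at -1.10 and -1.34.

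**Figure D5:**
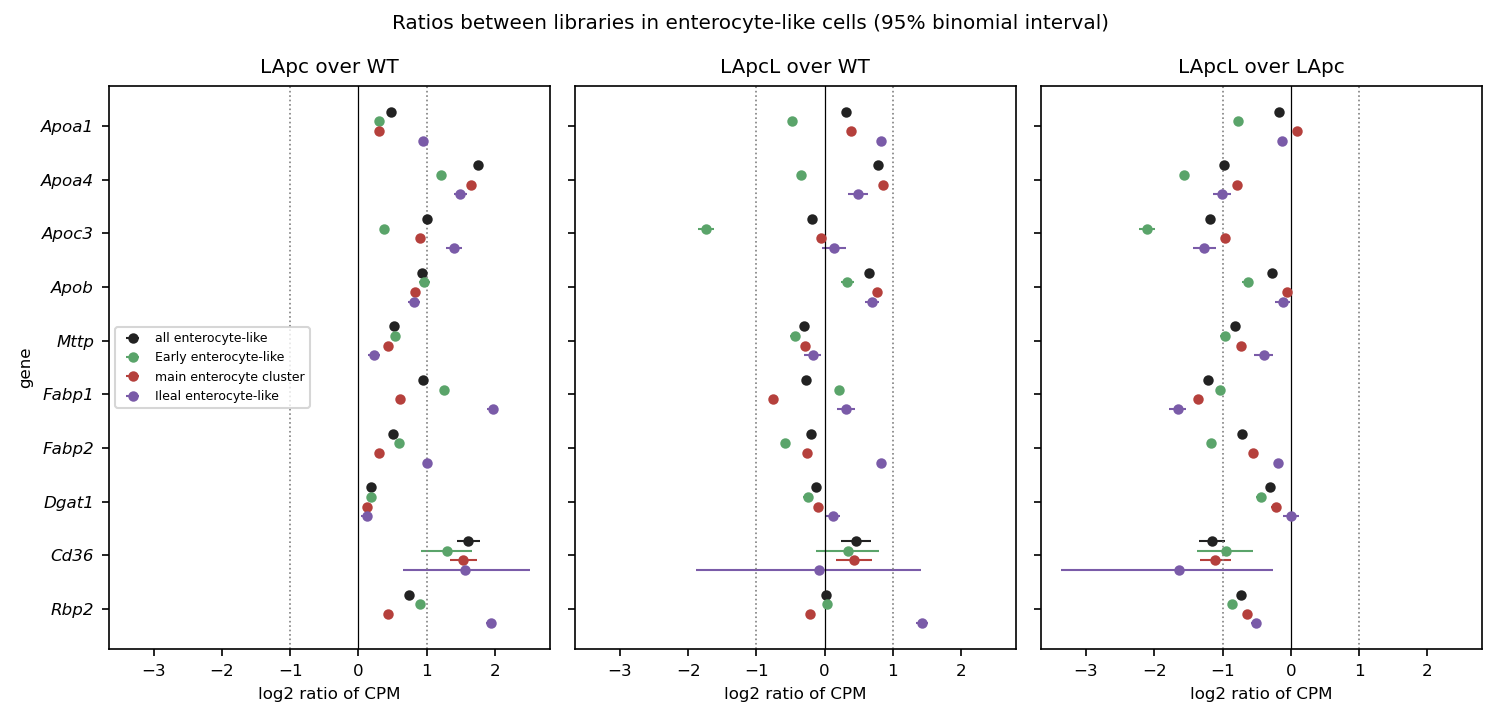
Log2 ratio of CPM between libraries (1 panel per comparison) for each gene over all enterocyte-like cells and in each of the 3 clusters, with 95% binomial intervals of counting error, which are narrower than most points. Dotted lines mark 2-fold. All points lie above 0 in *LApc* over WT, and in *LApcL* over WT the clusters lie on both sides of 0, with intervals clear of it, for *Apoa1*, *Apoa4*, *Fabp1*, *Fabp2*, *Dgat1* and *Rbp2*.

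Markers of other cells moved between these enterocyte-like cells as well. The 10 Paneth markers found summed to 5904, 1781 and 1823 CPM and the 11 goblet markers to 10579, 5434 and 3752 CPM in WT, *LApc* and *LApcL*, and none of either list was at 0. The 9 ileal markers summed to 19571, 7378 and 4948 CPM and the 6 proximal markers to 1838, 1743 and 831 CPM. The 10 early markers summed to 30591, 47068 and 29968 CPM, the 9 late markers to 995, 1462 and 1430 CPM and the 10 adenoma markers to 1.76, 26.5 and 112 CPM. Haemoglobin genes, of red blood cells, summed to 1.83, 1.98 and 492 CPM. Of 6 stromal markers 4, 3 and 4 were at 0. The ileal cluster made up 24.7%, 19.5% and 16.2% of enterocyte-like cells. The part of these differences in the ratios was not tested. The ratios within clusters and groups are given above, and marker sums differed between libraries within the ileal cluster and the late group too.

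In the adenoma-enriched cells, a cluster with 6 of 10 adenoma markers raised (1270 cells in *LApc*, 8759 in *LApcL* and 3 in WT), 7 of 10 genes were 2-fold or more lower in *LApcL* than in *LApc* and 0 higher. Of all 7866 genes tested there, 6.38% were 2-fold or more lower and 0.737% higher. *Rbp2* stood at 504 CPM in *LApc* and 100 CPM in *LApcL* (log2 ratio -2.33, interval -2.38 to -2.28), *Apoc3* at 116 and 27.8 CPM (-2.06) and *Apoa1* at 585 and 266 CPM (-1.14). *Apob* (73.0 and 56.5 CPM), *Mttp* (31.4 and 26.4 CPM) and *Dgat1* (48.1 and 54.0 CPM) were within 2-fold. The levels were close to those of Paneth-like cells of the same library, at 0.953 to 1.73 times them in *LApc*. In *LApcL*, *Dgat1* was at 2.91 times and *Apob* at 2.84 times the Paneth-like level, and the others at 1.07 to 1.90 times. Paneth-like cells themselves had 9 of 10 genes 2-fold or more lower in *LApcL* (2.73% of all genes), and enterocyte-like cells were 36.8% of *LApc* and 11.9% of *LApcL*. The median depth in *LApc* and *LApcL* was 7508.5 and 11650 UMIs in adenoma-enriched cells and 14324 and 17443 in Paneth-like cells. Whether the levels in adenoma-enriched cells are background was not tested. The part of enterocyte-like cell number in the ratios of the 7 genes was not tested either.

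Of 71 other genes of fat handling in 8 role lists, 70 were in the tables and 60 reached a mean of 10 CPM in enterocyte-like cells in each comparison. Between *LApc* and WT, 4 of 60 were 2-fold or more higher and 0 lower, with a median log2 ratio of 0.19, beside 1.79% and 1.20% of all genes. Between *LApcL* and WT, 2 were higher and 2 lower (median -0.05), beside 1.42% and 1.54%. Between *LApcL* and *LApc*, 1 was higher and 2 lower (median -0.26), beside 1.59% and 1.08%, so that these counts of 1 or 2 genes lie near the share over all genes. The medians of the wider list were thus nearer to 0 than those of the 10 genes, except for *LApcL* over WT, where both were -0.05.

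Among genes of uptake at the brush border (7 in the tables), re-esterification (9) and fatty acid binding and activation (6), only *Acsl3*, which links fatty acids to coenzyme A, passed 2-fold at this level in any comparison, at 9.83, 19.03 and 31.8 CPM in WT, *LApc* and *LApcL* (log2 ratio of *LApcL* over WT 1.69). In chylomicron assembly, *Apoc2*, whose protein activates lipoprotein lipase, stood at 3.96, 14.4 and 6.16 CPM and was lower in *LApcL* than in *LApc* (-1.22). Of the lipid droplet genes, *Cidec*, which enlarges droplets, was higher in *LApc* than in WT (13.2, 32.5 and 19.8 CPM, log2 ratio 1.30). *Aldh1a1*, which makes retinoic acid, was lower in *LApcL* than in both others, at 213, 271 and 80.3 CPM (-1.40 and -1.75), while *Rbp2*, of the same vitamin A route, differed from WT by 0.01.

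Of the oxidation genes, *Acadl*, of fatty acid oxidation, was higher in *LApc* than in WT (70.5, 171 and 116 CPM, log2 ratio 1.28). Of the regulators, *Creb3l3*, a transcription factor of lipid genes, stood at 167, 402 and 289 CPM (1.27 for *LApc* over WT), and *Ppard*, a fatty acid-sensing receptor, at 63.9, 36.4 and 27.5 CPM (-1.21 for *LApcL* over WT).

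Over the 32 sums of library and class, the genes whose log2 levels were most like the mean of the 10 were *Cyp3a13* (r = 0.97), *Treh*, *Mme*, *Alpi* and *Cyp4v3* (0.96 each), and *Cyp2d26*, *Slc27a4*, *Ephx2*, *Creb3l3* and *Ace* (0.95 each). The sums share libraries and depth, and these r values are descriptions. Among the 10, *Fabp1* was least like the mean of the other 9 (r = 0.76), and the rest lay between 0.87 and 0.94. The closest pairs were *Mttp* and *Dgat1* (0.97), which act in triglyceride synthesis and loading, *Apoa4* and *Apoc3* (0.96), and *Apoa1* and *Apob* (0.96). *Apoa4* and *Apoc3* are neighbours on chromosome 9, while *Apoa1* and *Apob* lie on different chromosomes. The neighbours *Apoa1* and *Apoc3* stood at 0.89, and *Apoa1* and *Apoa4* at 0.86.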

How the data were processed

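Single-cell libraries were made by the authors from EpCAM+ cells with a droplet 3′ method. The study names reagent kit v2 or v3 without saying which library used which. The deposited values are UMI counts per gene and barcode, not normalized, made by the authors with Cell Ranger 2.1.1 on the mm10 reference. Barcodes were filtered as the study describes (1% with the fewest and most genes, and over 20% mitochondrial UMIs, removed). Doublets, in place of the study's caller, were the highest Scrublet scores (scanpy 1.11.5) at 0.8% per 1000 barcodes, which removed 1023, 1135 and 2326 cells. Seurat 5.3.0 was used for integration (928 features), 20 principal components and Louvain clustering at resolution 0.2, and at 0.8 for enterocyte groups. A cluster was named when at least 3 markers, and at least 50% of its list, were raised 1.5-fold over the other clusters. Clusters 7 (goblet and cell cycle genes) and 10 (5 adenoma markers raised, but 12.6% WT cells at equal library weight) stayed unnamed. Adenoma-enriched means at least 3 adenoma markers raised and under 10% WT cells at equal library weight. A group was called late, proximal, ileal, early or mature by the list with the largest share raised. The proximal group had all 6 proximal markers and all 16 brush border genes raised, a tie, and was named for the former.

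UMIs were summed per library and class of at least 50 cells and divided by all UMIs (CPM). Intervals are exact Poisson for CPM, exact conditional binomial for ratios and Clopper-Pearson for shares, at 95%, and cover counting error only. With 0 counts, up to 3 counts are allowed. Ratios were checked on simulated counts. To compare shares of cells, each cell was thinned to 3000 UMIs, which left out 0 (WT), 321 (*LApc*) and 16 (*LApcL*) enterocyte-like cells. Background shares are over genes at a mean of 10 CPM in the libraries compared. The 10 genes, the gene lists and the tests were chosen with earlier results of these data known, and the motifs and the split of tuft-like cells at 10 *Fabp1* UMIs after the values were seen. Named genes were all 10 members, up to 3 pathway genes per role past 2-fold in any comparison, and the 10 genes most alike. An item that the naming rule also selected is counted but not reported here. Alternatives were edgeR 4.0.16 TMM scaling, other filters, clusterings, class rules, totals and weights. Annotation was GENCODE on GRCm38.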

Additional observations from a re-analysis of the deposited data

Results flagged for a closer look

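In some genes the enterocyte clusters lay on opposite sides of 0 under the same comparison, each with a counting interval clear of 0. The difference between the clusters was not tested, since each rests on 1 library per genotype. Between *LApcL* and WT, *Apoa1* had a log2 ratio of 0.83 in ileal and -0.47 in early enterocyte-like cells, *Apoa4* 0.86 in the main cluster and -0.35 in early cells, and *Fabp2* 0.83 in ileal and -0.58 in early cells. *Dgat1* had 0.12 in ileal and -0.25 in early cells. For *Fabp1* the ratio was 0.31 in ileal cells and -0.75 in the main cluster, and for *Rbp2* 1.43 and -0.21. Between *LApcL* and *LApc*, *Apoa1* stood at 0.092 in the main cluster and -0.78 in early cells.

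Barcodes left out for more than 20% mitochondrial UMIs entered no comparison, and they held the 10 genes at a high level. Of their non-mitochondrial UMIs, 8.80% came from the 10 genes in the 2342 barcodes of *LApc*, against 8.57% in the 62 of WT and 4.36% in the 413 of *LApcL*. *Apoa4* alone stood at 26757, 12850 and 8454 CPM of non-mitochondrial UMIs in the left-out barcodes of *LApc*, WT and *LApcL*.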

How the results depend on the processing

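No paired analysis was possible because each genotype has 1 library. None of the values tried reversed a called ratio. Among ratios within 2-fold, the sign turned for *Apoa1* in *LApcL* over *LApc* and for *Apoc3* and *Rbp2* in *LApcL* over WT under some alternatives. The count of genes 2-fold or more lower in *LApcL* than in *LApc* enterocyte-like cells went from 3 to 1 with a mitochondrial limit of 10% and to 1 with cells thinned to 3000 UMIs. The count 2-fold or more higher in *LApcL* than in WT went from 0 to 1 with each cell weighted equally. The cause was not tested. *Apoa4* and *Cd36* in *LApc* over WT stayed past 2-fold under all 10 alternatives, at 1.04 to 2.00 and 1.09 to 1.82, and *Fabp1* in *LApcL* over *LApc* at -1.34 to -1.10, while *Apoc3* in *LApc* over WT ranged from 0.41 to 1.36. With no filter beyond 1 UMI in each library, which adds genes of few counts, 8.68% of all genes were 2-fold or more higher and 5.39% lower in *LApc* over WT, 11.1% and 4.24% in *LApcL* over WT, and 10.7% and 4.73% in *LApcL* over *LApc*. With genes at 50 CPM or more, 0.937% were higher in *LApcL* over WT and 0.982% in *LApcL* over *LApc*. The other 67 counts tried stayed within 1.5 times. Depth limits *Cd36* most, with 417 (WT), 956 (*LApc*) and 289 (*LApcL*) UMIs over the enterocyte-like cells.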

Other observations

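The cells of the 2 unnamed clusters also held the 10 genes. In cluster 10, of 50, 165 and 247 cells in WT, *LApc* and *LApcL*, the genes made up 1.28%, 3.34% and 0.387% of UMIs. Its median depth was 7334, 2780 and 7034 UMIs. It had 5 of 10 adenoma markers raised, but at 12.6% WT cells it was over the limit for the adenoma-enriched name. In cluster 7, with goblet and cell cycle genes, they made up 0.440%, 0.529% and 0.349%, and *Fabp2* stood at 1567, 1414 and 1134 CPM.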
